A study of Mus musculus with 24 samples.

Results

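A set of 7 genes that mark striatal projection neurons of the direct pathway, Drd1, Tac1, Pdyn, Isl1, Ebf1, Chrm4 and Sfxn1, was followed through an ATAC-seq peak table. Members were all peaks whose annotated gene was 1 of the 7, which gave 115 of 147020 peaks (0.0782%). Each peak carries the gene with the nearest annotated start, so the assignment follows distance and not regulation. ATAC-seq counts DNA fragments cut and tagged by the Tn5 transposase where chromatin is open. Neuronal nuclei carrying NeuN were sorted from frozen striatum, and 50000 nuclei were transposed per library.

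The table holds 24 libraries from mice aged 12 months on a C57BL/6 background, 6 per genotype with 3 females and 3 males each. WT stands for wild-type mice. Q140 stands for mice heterozygous for the Q140 knock-in, an expanded CAG repeat in the endogenous huntingtin gene Htt that models Huntington's disease. Msh3KO stands for mice lacking both copies of Msh3, a DNA mismatch repair gene that acts in somatic growth of CAG repeats. Q140_Msh3KO stands for mice with the heterozygous knock-in and no Msh3. The comparisons therefore ask what the expanded allele does with and without Msh3. Repeat length was not measured by this assay.

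Projection neurons of the striatum fall into a direct and an indirect output pathway. Direct pathway neurons send axons to the substantia nigra and the internal pallidum, respond to dopamine through the D1 receptor and promote movement. Indirect pathway neurons carry the D2 receptor and project to the external pallidum. Both kinds are lost or impaired in Huntington's disease. All NeuN-positive nuclei were pooled here, so a lower signal from fewer direct pathway nuclei and a lower signal per nucleus cannot be told apart.

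By role, Drd1 encodes the D1 dopamine receptor, which raises cAMP, and Chrm4 encodes the M4 muscarinic receptor, which lowers it. Tac1 encodes the precursor of substance P, and Pdyn encodes the precursor of dynorphin. Isl1 is a LIM homeodomain transcription factor that directs direct pathway identity during development, and Ebf1 is a transcription factor of direct pathway differentiation. Sfxn1 encodes a mitochondrial serine transporter. Drd1 and Sfxn1 are neighbours on chromosome 13, with starts 16 kb apart, so their peaks divide 1 stretch of DNA. Chromosome 13 also holds Isl1 and the deleted gene Msh3, which lies 38.16 Mb from Drd1 and 23.94 Mb from Isl1.

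The DNA just before an annotated start is shown for 4 of the genes, Drd1, Tac1, Chrm4 and Isl1. Each sequence covers the 250 bases before the start in GRCm38.p6 from RefSeq, 5′ to 3′ on the gene's strand, and capitals mark CpG dinucleotides.
Drd1, chr13:54055659-54055908, minus strand: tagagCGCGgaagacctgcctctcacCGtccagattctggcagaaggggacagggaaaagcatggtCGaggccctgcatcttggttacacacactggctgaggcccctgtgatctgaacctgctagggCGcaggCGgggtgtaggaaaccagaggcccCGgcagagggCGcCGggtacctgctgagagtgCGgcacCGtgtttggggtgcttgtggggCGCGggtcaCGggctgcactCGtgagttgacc
Tac1, chr6:7554811-7555060, plus strand: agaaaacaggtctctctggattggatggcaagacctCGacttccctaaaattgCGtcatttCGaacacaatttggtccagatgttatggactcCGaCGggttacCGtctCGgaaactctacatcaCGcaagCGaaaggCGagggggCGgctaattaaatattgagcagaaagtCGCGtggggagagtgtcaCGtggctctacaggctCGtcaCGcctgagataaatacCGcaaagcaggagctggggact
Chrm4, chr2:91921939-91922188, plus strand: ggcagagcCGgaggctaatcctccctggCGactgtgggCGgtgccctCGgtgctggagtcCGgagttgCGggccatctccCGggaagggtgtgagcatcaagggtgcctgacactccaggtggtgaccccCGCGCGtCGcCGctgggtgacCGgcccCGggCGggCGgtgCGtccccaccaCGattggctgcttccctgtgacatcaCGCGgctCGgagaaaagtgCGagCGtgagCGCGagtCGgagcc
Isl1, chr13:116309689-116309938, minus strand: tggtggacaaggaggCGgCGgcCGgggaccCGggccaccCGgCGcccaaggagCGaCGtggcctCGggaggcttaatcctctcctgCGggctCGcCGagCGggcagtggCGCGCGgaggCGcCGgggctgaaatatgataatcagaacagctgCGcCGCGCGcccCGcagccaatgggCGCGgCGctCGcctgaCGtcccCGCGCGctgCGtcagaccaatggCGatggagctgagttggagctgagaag
The windows hold 15 CpG for Drd1, 17 for Tac1, 26 for Chrm4 and 33 for Isl1, against a median of 6 over all windows of this length in the RefSeq table. GC content was 64.0% for Drd1, 51.2% for Tac1, 70.0% for Chrm4 and 71.2% for Isl1, and the median of all windows was 52.4%. Drd1 has another annotated start at 54054780, within the same start peak, whose window holds 5 CpG and 60.8% GC. Distances of the distal Drd1 peaks named below are counted from that start. The windows before the 10 annotated starts of the 7 genes were searched on both strands for an EBF motif (TCCC and GGGA, 2 bases apart), a cAMP response element (TGACGTCA), AP-1 (TGANTCA), a LIM homeobox core (TAATTG), MEF2 (TATTTATA) and an E-box (CAGCTG). The search found 1 match, an E-box whose first base lies at -103 from the Isl1 start. Of all windows 13% hold that E-box, 7.17% the LIM homeobox core, 6.75% AP-1, 1.56% MEF2, 1.55% the cAMP response element and 0.779% the EBF motif.

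The gene with most member peaks was Ebf1 with 27, followed by Tac1 with 25, Isl1 with 20, Chrm4 with 13, Drd1 with 12, Pdyn with 12 and Sfxn1 with 6. Of the 115 peaks, 56 were intergenic, 47 intronic and 8 promoter peaks, and 28 lay over 100 kb from the annotated start. For Chrm4, 10 of the 13 peaks lie in introns of its neighbour Ambra1, an autophagy gene. The filter on low counts kept 113 peaks and removed 2 intergenic Tac1 peaks, at 7400426 and 7613612, both over LINE repeats. Tested member peaks had a median width of 432 bases against 397 for all tested peaks, and a median count per library of 34 against 27.

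Total counts in peaks ran from 4372251 to 11736557 per library. The promoter peak of the deleted gene Msh3 had genotype medians from 66.5 CPM (Q140_Msh3KO) to 71.1 CPM (WT), and that of Htt had medians from 43.0 to 45.6. The labels do not say which part of Msh3 is deleted, and ATAC-seq of these peaks does not read the repeat, so genotypes were taken as labelled. Marker genes of neurons were open, with promoter peaks at all 4 genes and a median of 24.6 CPM per kb (counts scaled to library size, divided by peak width). Promoter peaks were present at 1 of 7 astrocyte, 1 of 6 microglial, 1 of 5 oligodendrocyte precursor, 2 of 6 endothelial and pericyte and 4 of 7 oligodendrocyte genes. WT F3, a female WT library, held the highest summed signal over the 113 peaks. Q140 F2 had a share of counts on the X chromosome of 1.47%, below the 1.49% to 1.59% of the males, although it is labelled female. Its 4586 counts in Y peaks were the lowest of all libraries, against 7388 to 16123 in males, though other females reached 18624. In addition, 12.7% of the counts of Q140_Msh3KO M1 fell in its 10 highest peaks. Without Q140 F2 and Q140_Msh3KO M1 the member peaks past the threshold in Q140 vs WT again numbered 8, with 4 higher and 4 lower.

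The peaks at the annotated starts were open at all 7 genes and showed no difference between genotypes past the threshold. Per kb of peak, the mean over 24 libraries was 26.7 CPM for Sfxn1, 24.6 for Drd1, 24.3 for Chrm4, 15.2 for Isl1, 11.4 for Tac1, 11.1 for Pdyn and 9.24 for Ebf1. The median promoter peak over 9366 genes held 17.0 CPM per kb, so the start peaks of Sfxn1, Drd1 and Chrm4 lay above it and those of the other 4 below. The range over the 24 libraries of each gene overlaps that of the next gene in this order. Ebf1 has another promoter peak, at 44616899, which held 23.4 CPM per kb and so lay above that median.

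At the Drd1 start (chr13:54054700-54056011) the lowest, median and highest library held 29.7, 31.7 and 45.5 CPM in WT and 26.6, 31.6 and 36.6 in Q140. Msh3KO libraries there held 28.3, 32.1 and 38.0 CPM, and Q140_Msh3KO libraries held 24.6, 31.9 and 35.2. The 4 ranges overlap. Q140 differed from WT by a log2 fold change of -0.11 ± 0.11 (SE, edgeR adjusted p = 0.679), with a 95% interval from -0.34 to 0.12.

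At the Tac1 start (chr6:7554312-7555530) the values were 13.2, 14.5 and 16.3 CPM in WT, 11.4, 13.6 and 18.0 in Q140, 10.2, 12.3 and 14.8 in Msh3KO and 12.4, 15.5 and 16.9 in Q140_Msh3KO. Q140 and WT overlapped, with a log2 fold change of -0.09 ± 0.13 (edgeR adjusted p = 0.788). The Chrm4 start (chr2:91921733-91922381) held 11.9, 16.7 and 18.0 CPM in WT and 13.3, 15.8 and 18.6 in Q140, a log2 fold change of 0.01 ± 0.13 (edgeR adjusted p = 0.989). The 95% interval for Chrm4 ran from -0.25 to 0.26. The Isl1 start (chr13:116309235-116310259) held 13.6, 16.6 and 19.0 CPM in WT and 14.2, 15.1 and 19.1 in Q140, a log2 fold change of -0.04 ± 0.12 (edgeR adjusted p = 0.921).

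Pdyn, Ebf1 and Sfxn1 gave fold changes near 0 at their starts as well. Medians were 5.65 CPM in WT and 5.99 in Q140 at Pdyn (chr2:129698295-129698830), 3.08 and 2.81 at Ebf1 (chr11:44620020-44620324), and 22.2 and 24.0 at Sfxn1 (chr13:54071595-54072414). The log2 fold changes in Q140 vs WT were 0.05 ± 0.16, 0.02 ± 0.22 and 0.07 ± 0.12. The 95% interval for Ebf1 was the widest of the 7 start peaks, from -0.41 to 0.46, with 11 to 46 counts per library. A change at these starts smaller than the intervals was not detectable.

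**Figure D1:**
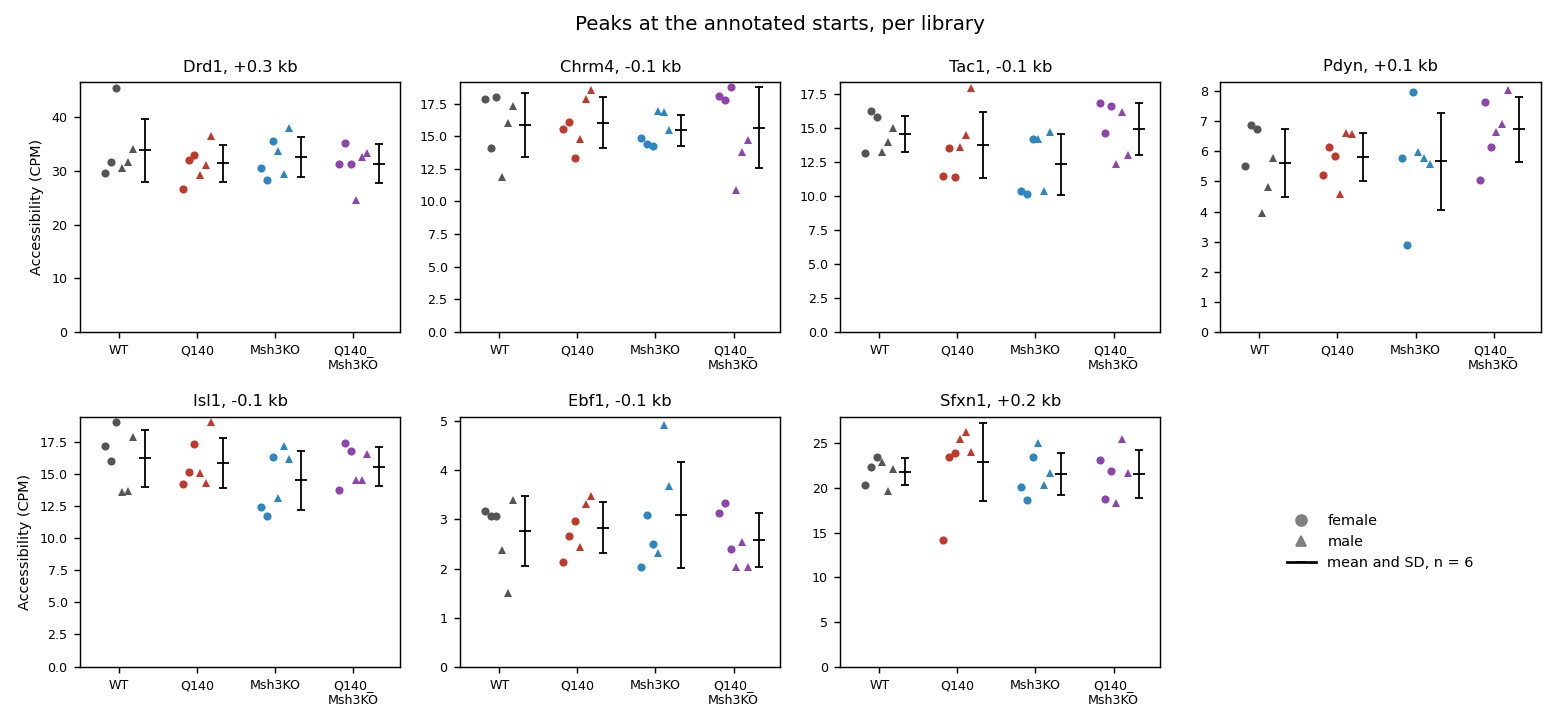
Accessibility in CPM (y axis, from 0) at the start peak of each gene, 1 point per library (circles female, triangles male), with the mean and SD of 6 animals at the right of each genotype. The title of each panel gives the gene and the distance of the peak from the annotated start. The genotypes overlap in every panel, and 1 WT library stands at 45.5 CPM for Drd1.

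In Q140 vs WT, 8 of the 113 tested member peaks passed the threshold (edgeR, Benjamini-Hochberg adjusted p under 0.05 over all tested peaks). That is 7.08% of the members, against 10.3% of all 146155 tested peaks, so the members did not pass more often than peaks in general. Higher peaks numbered 4, where 4.2% of all tested peaks were higher, and lower peaks also numbered 4, where 6.11% of all were lower. Scaled to total counts instead, 5 member peaks were higher and 3 lower, and over all tested peaks 7488 were higher and 7999 lower in place of 6142 and 8924. Without WT F3 the numbers over all tested peaks were 6018 higher and 5886 lower, with no excess of lower peaks. Each of the 8 lies outside promoters. Of the 8 promoter peaks of the members 0 passed, while 3.33% of all promoter peaks passed. At an unadjusted p under 0.05 the member promoters again gave 0, against 11.3% of all promoter peaks. Over all classes 21 of the 113 members had an unadjusted p under 0.05, or 18.6%, against 21.3% of all tested peaks. The median log2 fold change was -0.05 over the members, with 48 of 113 above 0, and -0.01 over all tested peaks.

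By gene, Tac1 had 2 higher and 1 lower peak of 23 tested, Isl1 had 1 higher and 1 lower of 20, Ebf1 had 1 higher of 27, Drd1 had 1 lower of 12 and Chrm4 had 1 lower of 13. Of the 12 Pdyn peaks and the 6 Sfxn1 peaks 0 passed, and 1 of each had an unadjusted p under 0.05, where 21.3% of all tested peaks did. Fold changes at Drd1 leaned to 1 side, with 2 of 12 above 0 and a median of -0.20. At Tac1, 6 of 23 were above 0, with a median of -0.09. At Isl1, 11 of 20 were above 0, with a median of 0.13. Drd1 leaned the same way in the other comparisons with WT, which share the WT libraries. In Msh3KO vs WT 1 of its 12 peaks was above 0, with a median of -0.13. In Q140_Msh3KO vs WT it was 3 of 12, with a median of -0.14.

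**Figure D2:**
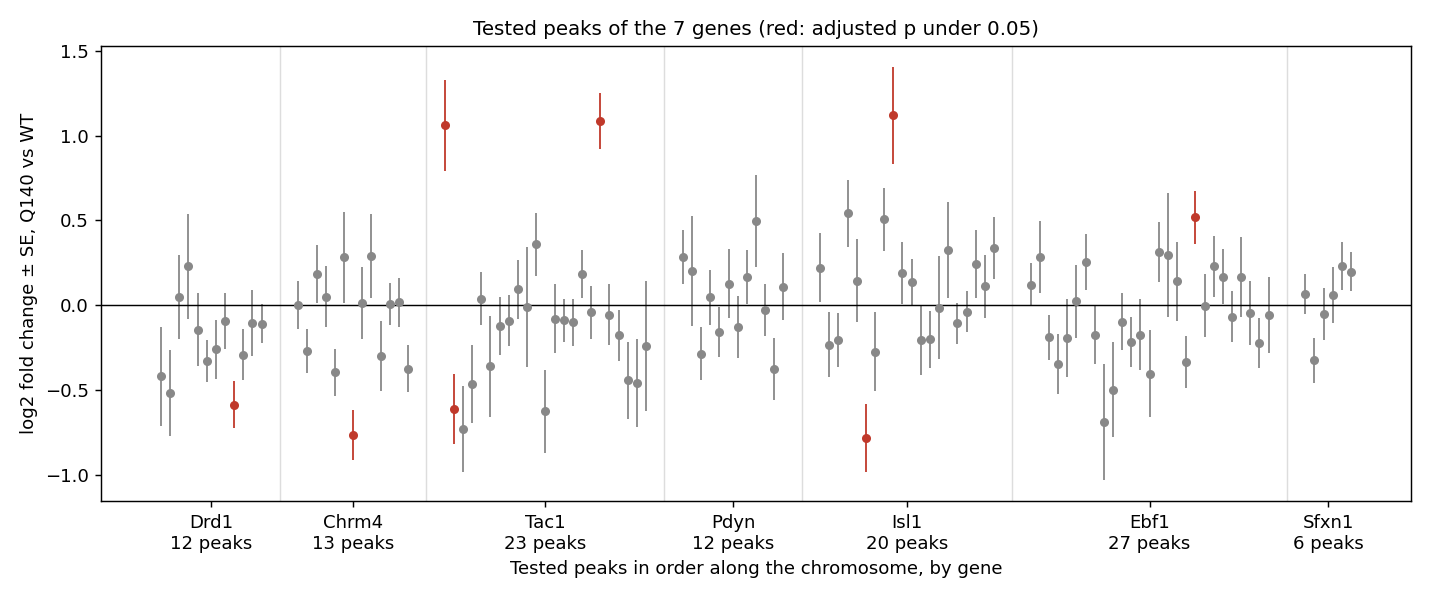
Log2 fold change in Q140 vs WT with its SE (y axis) for each of the 113 tested peaks, in order along the chromosome within each gene (x axis). Red points are the 8 peaks past the threshold, 4 above and 4 below 0, and Pdyn and Sfxn1 have none.

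For the peaks past the threshold, the overlap of Q140 and WT libraries is given below. These peaks were chosen by that comparison, so little overlap follows in part from the choice. The share of all tested peaks without overlap was not computed. The receptor genes each lost accessibility at 1 distal peak. The Drd1 peak lies 7.80 kb from an annotated start and 3.94 kb past the 3′ end of the gene, in intergenic DNA (chr13:54046711-54047245). WT libraries held 8.61, 11.2 and 16.8 CPM (lowest, median, highest) and Q140 libraries 5.79, 7.46 and 9.39. Of the Q140 libraries, 5 of 6 lay below the lowest WT library. This was a log2 fold change of -0.59 ± 0.14 (edgeR adjusted p = 0.00267), from a mean of 11.5 ± 3.00 CPM to 7.54 ± 1.20 (SD, n = 6).

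Without Msh3 that Drd1 peak held 7.80, 9.70 and 10.4 CPM in Msh3KO and 6.80, 8.04 and 10.2 in Q140_Msh3KO, and these ranges overlap with each other. Q140_Msh3KO differed from Msh3KO by -0.22 ± 0.14 on the log2 scale (edgeR adjusted p = 0.808). The Q140 effect with Msh3 minus that without it, the interaction, was -0.37 ± 0.20 (edgeR adjusted p = 0.717). The most accessible Drd1 peak per kb, at 24.0 kb (chr13:54030290-54031263), had medians of 30.2 CPM in WT and 24.4 in Q140. Its log2 fold change was -0.33 ± 0.12 (edgeR adjusted p = 0.081), and it passed under 7 of 34 other settings.

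The Chrm4 peak lies upstream, at -22.15 kb from the Chrm4 start, in intron 15 of 18 of Ambra1 (chr2:91899661-91900423). WT libraries held 8.36, 13.2 and 17.2 CPM, and Q140 libraries 6.03, 7.55 and 9.49, with some overlap. The peak fell by a log2 fold change of -0.77 ± 0.15 (edgeR adjusted p = 2.76e-04), the smallest adjusted p among the lower peaks of the 7 genes. Msh3KO libraries held 9.08, 13.2 and 15.0 CPM and Q140_Msh3KO libraries 9.04, 10.5 and 12.6, so that 5 of 6 Q140_Msh3KO libraries lay above the highest Q140 library. In Q140_Msh3KO vs Q140 the log2 fold change was 0.44 ± 0.15 (edgeR adjusted p = 0.215), and the interaction was -0.50 ± 0.21 (edgeR adjusted p = 0.55).

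The peptide gene Tac1 gained accessibility at 2 distal peaks and lost it at 1. The peak with the smallest adjusted p of all member peaks lies 44.44 kb past the Tac1 start, in the intergenic stretch between Tac1 and Asns, an asparagine synthetase gene (chr6:7599099-7599897). WT libraries held 3.23, 4.11 and 5.17 CPM and Q140 libraries 5.79, 9.13 and 10.2, with every Q140 library above every WT library. This peak rose by a log2 fold change of 1.09 ± 0.17 (edgeR adjusted p = 9.54e-06), from 4.08 ± 0.681 to 8.68 ± 1.56 CPM (SD, n = 6).

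At the same Tac1 peak, Msh3KO libraries held 1.99, 3.69 and 5.12 CPM and Q140_Msh3KO libraries 4.98, 5.87 and 9.03. Of the Q140_Msh3KO libraries, 5 of 6 lay above the highest Msh3KO library. Between these groups the log2 fold change was 0.74 ± 0.18 (edgeR adjusted p = 0.0702), with a 95% interval from 0.38 to 1.09, and it passed without Msh3KO F3 and with 3 other settings. The interaction was 0.35 ± 0.24 (edgeR adjusted p = 0.836), so a difference between the effects with and without Msh3 was not shown. The next peak, less than 1 kb further on at 7600182, had a log2 fold change of -0.06 in Q140 vs WT.

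The other higher Tac1 peak lies far upstream, at -282.77 kb from the start (chr6:7272148-7272431). WT libraries held 0.793, 1.25 and 1.64 CPM and Q140 libraries 1.65, 2.75 and 3.05, which do not overlap, on 6 to 35 counts per library. Its log2 fold change was 1.06 ± 0.27 (edgeR adjusted p = 0.0059). The lower Tac1 peak lies at -252.27 kb from the start (chr6:7302627-7302963) and held 2.93, 3.80 and 5.53 CPM in WT and 1.31, 2.86 and 3.59 in Q140. Its log2 fold change of -0.61 ± 0.21 (edgeR adjusted p = 0.0451) lay at the threshold, and the call was lost in 15 of the 24 fits that left out 1 library. The most accessible Tac1 peak, at -224.28 kb (chr6:7330082-7331477), had medians of 37.2 CPM in WT and 42.5 in Q140 and a log2 fold change of 0.04 ± 0.16 (edgeR adjusted p = 0.938).

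Pdyn, the other peptide gene, held its most accessible peak at -34.35 kb from its annotated start at 129699938 (chr2:129733921-129734656). The Pdyn start peak named above lies at another annotated start, 129698658. WT libraries held 10.2, 13.5 and 18.5 CPM there and Q140 libraries 11.9, 14.6 and 21.9, with wide overlap. Their difference gave a log2 fold change of 0.16 ± 0.16 (edgeR adjusted p = 0.646). Over the 12 Pdyn peaks, log2 fold changes in Q140 vs WT ran from -0.38 to 0.50.

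**Figure D3:**
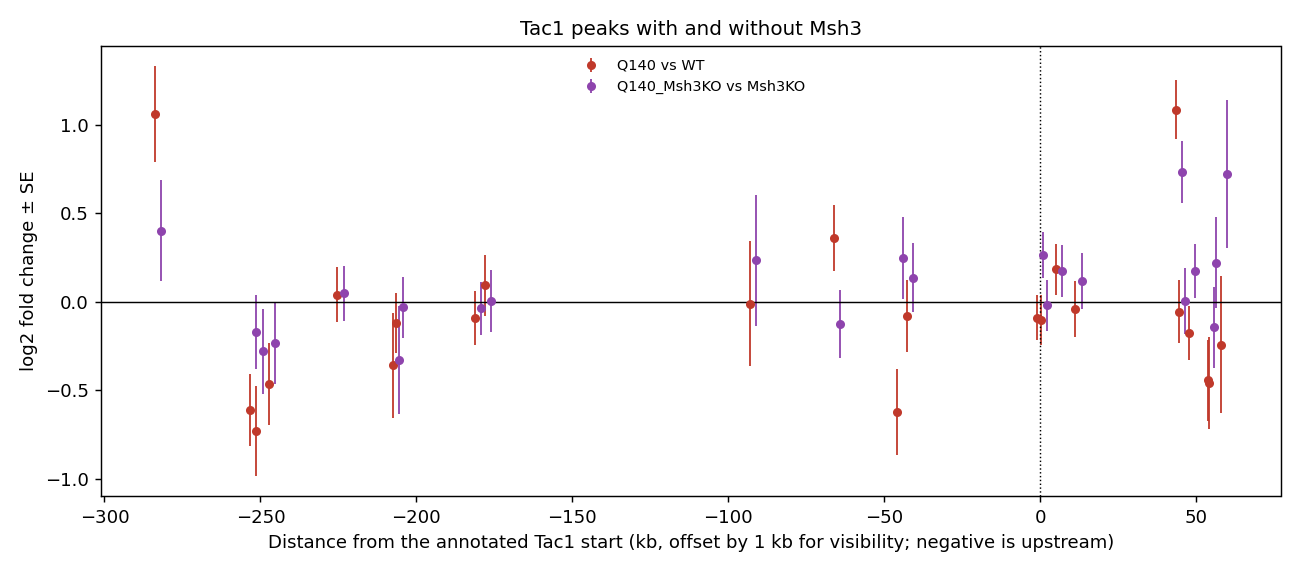
Log2 fold change with its SE (y axis) for the 23 tested Tac1 peaks against distance from the annotated start in kb (x axis), for Q140 vs WT in red and Q140_Msh3KO vs Msh3KO in purple. The peak 44.44 kb past the start stands above 0 in both, at 1.09 and 0.74, beside neighbours near or below 0 in Q140 vs WT.

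The transcription factor gene Isl1 had a lower peak 201.91 kb past its start, in intergenic DNA (chr13:116107549-116108016). WT libraries held 4.53, 5.49 and 10.6 CPM and Q140 libraries 2.36, 3.61 and 4.96. Of the Q140 libraries, 5 of 6 lay below the lowest WT library. The log2 fold change was -0.78 ± 0.20 (edgeR adjusted p = 0.00799). WT F2 was the highest WT library, and without it the log2 fold change was -0.57 and the adjusted p 0.0592.

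The higher Isl1 peak lies 96.11 kb past the start (chr13:116213477-116213676). WT libraries held 0.470, 1.02 and 1.98 CPM and Q140 libraries 2.01, 2.29 and 3.02. Msh3KO libraries held 1.16, 1.57 and 1.67 CPM and Q140_Msh3KO libraries 0.506, 1.46 and 1.92. Every Q140 library therefore lay above every library of the other genotypes, on 3 to 27 counts per library. The peak was chosen for being higher in Q140 vs WT, so this separation follows in part from the choice. The share of all tested peaks with such a separation was not computed. In Q140 vs WT the peak rose by a log2 fold change of 1.12 ± 0.29 (edgeR adjusted p = 0.00671). It was -0.79 ± 0.27 in Q140_Msh3KO vs Q140 (edgeR adjusted p = 0.226), and the interaction was 1.22 ± 0.42 (edgeR adjusted p = 0.385). The neighbouring peak at 116212423 had a log2 fold change of 0.51 in Q140 vs WT (edgeR adjusted p = 0.081).

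Ebf1 had 1 higher peak, in intron 7 of 16 of its own gene, 141.06 kb past the annotated start at 44620228 (chr11:44760995-44761588). WT libraries held 3.88, 4.78 and 5.87 CPM and Q140 libraries 6.03, 7.05 and 7.84, which do not overlap. Q140 was higher by a log2 fold change of 0.52 ± 0.16 (edgeR adjusted p = 0.0233). Msh3KO libraries held 2.66, 4.38 and 4.94 CPM and Q140_Msh3KO libraries 3.98, 5.90 and 7.64, with a log2 fold change of 0.44 ± 0.17 between them (edgeR adjusted p = 0.418). The call in Q140 vs WT was lost without WT F3, without WT M2 and without Q140 F3, with adjusted p up to 0.0643. The most accessible Ebf1 peak is a promoter peak at -0.9 kb from another annotated start, at 44618100 (chr11:44616899-44617500). It held medians of 15.9 CPM in WT and 13.8 in Q140, a log2 fold change of -0.19 ± 0.13 (edgeR adjusted p = 0.465).

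Sfxn1 held the most accessible peak per kb of the 7 genes, at 37.1 CPM per kb, in intron 6 of 10 of the gene (chr13:54092895-54093998). WT libraries held 31.4, 37.8 and 58.6 CPM there and Q140 libraries 27.5, 41.3 and 51.3, which overlap. The log2 fold change was 0.06 ± 0.17 (edgeR adjusted p = 0.909). The most accessible Chrm4 peak, in intron 1 of 1 of that gene (chr2:91924061-91924279), held medians of 6.99 CPM in WT and 7.19 in Q140, and that of Isl1, at 116.76 kb (chr13:116192752-116193108), 8.32 and 7.50. Neither passed the threshold, with log2 fold changes of 0.02 ± 0.14 and -0.28 ± 0.23. That Isl1 peak is annotated over a (CCCTAA)n simple repeat.

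**Figure D4:**
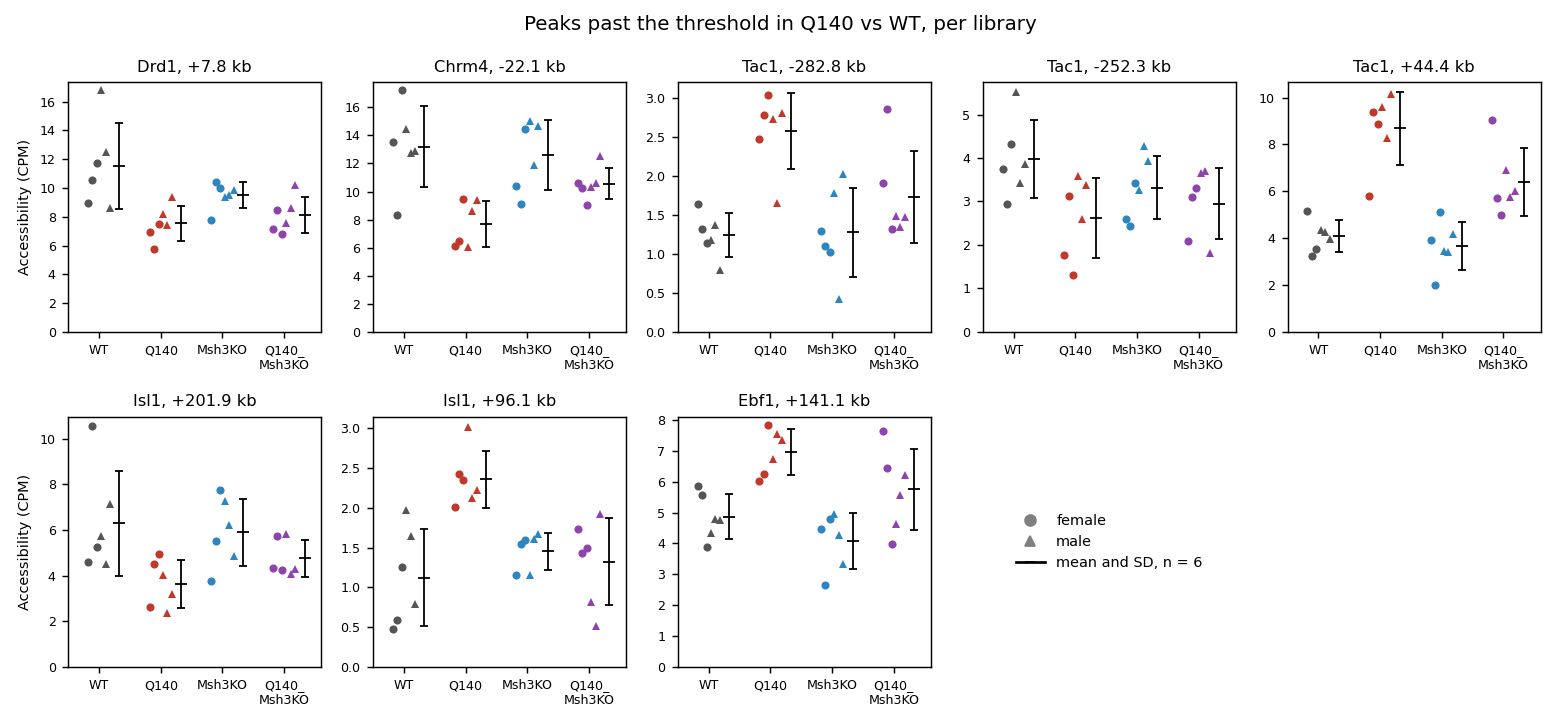
Accessibility in CPM (y axis, from 0) at the 8 peaks past the threshold in Q140 vs WT, 1 point per library (circles female, triangles male), with the mean and SD of 6 animals at the right of each genotype. Panel titles give the gene and the distance from the annotated start. Q140 libraries lie above all WT libraries at the Tac1 peaks at 44.44 and -282.77 kb, the Isl1 peak at 96.11 kb and the Ebf1 peak. These peaks were picked for passing this comparison, and the share of all tested peaks without overlap was not computed.

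The other comparisons gave 0 member peaks past the threshold. In Msh3KO vs WT 0 of 113 passed, also at an unadjusted p under 0.05, where 0.013% and 3.34% of all tested peaks passed. Members on chromosome 13 were included in that count. In Q140_Msh3KO vs Q140, 10 members had an unadjusted p under 0.05, against 9.5% of all peaks, and 0.529% of all peaks passed the adjusted threshold. In Q140_Msh3KO vs Msh3KO the unadjusted count was 4, against 7.68% of all peaks, with 0.116% past the adjusted threshold. In Q140_Msh3KO vs WT it was 7, against 9.82%, with 0.525% past the adjusted threshold. For the interaction it was 4, against 7.32%, with 0.0226% past the adjusted threshold. DESeq2 called 1 member in Q140_Msh3KO vs Msh3KO, the Tac1 peak at 44.44 kb, and 0 in the other 4, and limma-voom called 0 in all 5.

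In 4 of these comparisons the count over all tested peaks moved with single libraries. With 1 library left out, the 773 calls in Q140_Msh3KO vs Q140 ran from 378 (without Q140_Msh3KO M2) to 1104 (without Msh3KO F2), and were 199 without Q140 F2 and Q140_Msh3KO M1 together. The 169 calls in Q140_Msh3KO vs Msh3KO ran from 15 (without Q140_Msh3KO M3) to 368 (without Msh3KO F2). In Q140_Msh3KO vs WT the 768 calls ran from 200 (without Q140_Msh3KO M3) to 1078 (without Msh3KO F2). The 33 calls of the interaction ran from 8 (without WT M1, Q140 F3 or Q140_Msh3KO M1) to 150 (without Msh3KO F3), and were 152 with a count minimum of 30. A shift of over 1.5 times came with 6, 10, 6 and 18 of the 24 left-out libraries, in that order of comparisons. In Msh3KO vs WT the 19 calls ran from 14 to 21. Members past the adjusted threshold stayed at 0 in each of these fits, except for the Tac1 peak at 44.44 kb in Q140_Msh3KO vs Msh3KO without Msh3KO F3.

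The comparisons of Q140 with WT and of Q140_Msh3KO with Q140 share the Q140 libraries, so their values are given side by side only. At the 4 higher peaks, log2 fold changes in Q140_Msh3KO vs Q140 were -0.47 and -0.59 for Tac1 (44.44 and -282.77 kb), -0.79 for Isl1 and -0.31 for Ebf1. At the 4 lower peaks they were 0.11 for Drd1, 0.21 for Tac1, 0.44 for Chrm4 and 0.39 for Isl1.

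The Q140 effect did not differ by sex past the threshold at any member peak. For the difference between females and males 0 of 113 passed, as did 0% of all peaks, and 2 members had an unadjusted p under 0.05 against 3.29% of all. At the Tac1 peak at 44.44 kb the log2 fold change was 1.01 ± 0.24 in females (edgeR adjusted p = 0.0135) and 1.17 ± 0.24 in males (edgeR adjusted p = 0.00442). At the Chrm4 peak in Ambra1 it was -0.82 ± 0.22 in females and -0.72 ± 0.22 in males. At the Isl1 peak at 96.11 kb it was 1.52 ± 0.42 in females and 0.79 ± 0.39 in males, a difference of 0.73 ± 0.58 (edgeR adjusted p = 1).

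Counts summed over the peaks of each gene gave 1 gene past the threshold in Q140 vs WT, Drd1, where 12.9% of all summed genes passed. Its 12 peaks together held 95.4, 110 and 124 CPM in WT (lowest, median, highest) and 86.5, 90.9 and 107 in Q140, which overlap. The log2 fold change was -0.24 ± 0.07 (edgeR adjusted p = 0.0147). Without WT F3 it was -0.19 with an adjusted p of 0.0612, and with scaling by total counts -0.20 with an adjusted p of 0.0763. Msh3KO libraries held 90.7, 97.4 and 111 CPM and Q140_Msh3KO libraries 87.3, 96.9 and 106. Against WT their log2 fold changes were -0.13 ± 0.07 and -0.18 ± 0.07, and neither passed the threshold.

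Summed Chrm4 peaks held medians of 124 CPM in WT and 111 in Q140, a log2 fold change of -0.18 ± 0.07 (edgeR adjusted p = 0.0871). Tac1 summed to -0.01 ± 0.06. Pdyn gave -0.01 ± 0.09, Isl1 -0.01 ± 0.05, Ebf1 -0.05 ± 0.05 and Sfxn1 0.07 ± 0.09. For summed Tac1 the 95% interval ran from -0.13 to 0.11.

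Over all tested member peaks the summed CPM was 754, 776 and 898 in WT, 663, 766 and 839 in Q140, 656, 803 and 871 in Msh3KO and 697, 804 and 832 in Q140_Msh3KO. The genotypes overlap in this sum. Marker peaks of cortical glutamatergic neurons, another kind that NeuN sorting keeps, summed to 179, 182 and 202 CPM in WT and 194, 203 and 212 in Q140. Promoter peaks were present at 2 of those 6 genes, and not at Slc17a7, Neurod2, Neurod6 or Tbr1. Oligodendrocyte marker peaks summed to 536, 568 and 641 CPM in WT and 491, 527 and 576 in Q140. Astrocyte marker peaks summed to 218, 234 and 243 CPM in WT and 224, 256 and 265 in Q140. Peaks of genes shared by both kinds of projection neuron summed to 3045, 3292 and 3944 CPM in WT and 2652, 2979 and 3481 in Q140. WT and Q140 overlap in each of these sums, and medians in Q140 were higher for the cortical and astrocyte lists and lower for the other 2. The part of these differences in the results above was not tested.

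Across the 24 libraries, summed log2 CPM of Drd1, Tac1, Pdyn, Chrm4, Ebf1 and Sfxn1 correlated with each other, with Pearson r between 0.501 (Drd1 and Pdyn) and 0.806 (Tac1 and Sfxn1). Isl1 had a negative r with each of the other 6, from -0.125 with Drd1 to -0.492 with Sfxn1. Summed Isl1 includes the peaks at 115742107 and 116192752, annotated over (CCCTAA)n simple repeats, and r without them was not computed. The genes most like Drd1 among 9245 genes with at least 5 tested peaks were Dmtn at 0.927, Necab2 at 0.926, Sec22a at 0.92, Tesc at 0.918 and Rasd2 at 0.917, and the median of all was 0.264. These are descriptions over libraries that share depth, genotype and the share of counts in promoters.

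Other genes expressed in or acting in direct pathway neurons were taken as a list of 25 that shares no gene with the 7. Ppp1r1b, Bcl11b, Pde10a and Foxp1 are also in the list above of genes shared by both kinds of projection neuron. The 25 genes are therefore not particular to the direct pathway. Their tested peaks numbered 699. In Q140 vs WT 28 were higher and 65 lower, 13.3% in all against 10.3% of all tested peaks, with a median log2 fold change of -0.09. Adcy5, the adenylyl cyclase of striatal projection neurons, had 12 lower peaks of 39. Pde10a, a striatal phosphodiesterase, had 18 lower of 87, and Prkcb, a protein kinase C, had 8 lower of 44. Foxp1, a transcription factor of these neurons, had 4 higher and 7 lower of 110. In Q140_Msh3KO vs Q140, 2 of the 699 peaks were higher and 0 lower, where 0.529% of all tested peaks passed.

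The 12 indirect pathway genes of the comparison list had 165 tested peaks, of which 5 were higher and 15 lower in Q140 vs WT, or 12.1%, with a median of -0.05. Penk, the enkephalin precursor gene, had 4 lower peaks of 16, and Drd2, the D2 receptor gene, had 1 lower of 10. The ratio of summed CPM over the direct pathway members to that over the indirect list was 0.737, 0.841 and 0.866 in WT (lowest, median, highest) and 0.792, 0.840 and 0.870 in Q140, which overlap. The shares of 7.08%, 13.3% and 12.1% stand beside 10.3% of all tested peaks, and they were not tested against each other or against that share.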

How the data were processed

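Peak counts of 24 libraries were deposited by the authors as 1 table of raw read counts per peak. The genome build was GRCm38 and the tools were MACS2, featureCounts, BWA, Picard and SAMtools, per the submitters' processing notes. Tool versions, order and settings, the treatment of duplicates and any shift of cut sites were not given in the sources used here. All libraries share 1 peak set, so a region open in few libraries can be missed. All 24 count columns were used, with 0 other sample columns.

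Tests were run on the counts in edgeR 4.0.16 (R 4.3.3), with TMM scaling and filterByExpr at a count minimum of 10, which kept 146155 peaks. A robust quasi-likelihood model with genotype and sex was fitted to all 24 libraries, and p-values were adjusted by Benjamini-Hochberg over all tested peaks at 0.05. SE is the log2 fold change over the square root of F. Alternatives included DESeq2 1.42.0 and limma-voom 3.58.1.

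The peaks named are, for each gene, its start peak, its most accessible peak per kb and every peak past the threshold. Neighbouring peaks and list genes named beside them were chosen after their values were seen. The members and lists were chosen with earlier results of these data known. Depth ran from 4372251 to 11736557 counts in peaks, and fragments without molecular identifiers are not independent molecules. Counts of the 60 pairs of libraries within a genotype differed by 1.33 to 8.84 chi-square per peak, with 0 identical pairs. Promoter windows came from RefSeq (GRCm38.p6). Peak sequences were not used here.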

Additional observations from a re-analysis of the deposited data

Results flagged for a closer look

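Values standing far from the rest of their group of 6 were found in 7 of 96 groups examined, against about 4.8 expected, since chance alone marks about 1 group in 20. WT F3 accounts for 3 of them. It held 45.5 CPM at the Drd1 start peak, where the other WT libraries held 29.7 to 34.1. At the Sfxn1 peak in intron 6 it held 58.6 CPM, where the others held 31.4 to 38.5. Its summed CPM over the member peaks was 898, against 754 to 790 in the other WT libraries.

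Q140_Msh3KO M1 held 24.6 CPM at the Drd1 start peak, below the 31.3 to 35.2 of its group. Msh3KO F2, the library of lowest depth, held 7.75 CPM at the Pdyn peak at -34.35 kb from the start, where the others held 15.4 to 18.4. WT M2 held 11.2 CPM at the Ebf1 peak at -0.9 kb, against 15.4 to 17.5. Q140 F1 held 14.2 CPM at the Sfxn1 start peak, against 23.5 to 26.2 in the other Q140 libraries.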

How the results depend on the processing

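In Q140 vs WT the count of member peaks past the threshold stayed between 7 and 12, distance and left-out libraries aside. It was 8 with DESeq2 size factors, 8 with total counts, 12 of 115 (4 higher, 8 lower) with no filter on low counts, 9 of 79 with a count minimum of 30, 7 with DESeq2, 9 with limma-voom, 7 with no sex term and 10 with only the libraries compared. Within 100 kb of the start it was 4 of 86. The Tac1 peaks at -282.77 and -252.27 kb, the Isl1 peak at 201.91 kb and the Ebf1 peak at 141.06 kb lie farther away. The share of all tested peaks past the threshold within 100 kb was not computed. Leaving out 1 library gave 6 (without WT F3) to 12 (without Q140_Msh3KO F2). In Q140_Msh3KO vs Msh3KO the count was 1 in place of 0 with total counts, a count minimum of 30 and DESeq2, and 0 to 1 with 1 library left out, each time the Tac1 peak at 44.44 kb. In Q140_Msh3KO vs WT it was 2 with a count minimum of 30 and 0 with any 1 library left out. The other comparisons, and the difference by sex, gave 0 under every setting run and with any 1 library left out. On summed counts, the 1 gene became 0 with total counts and 0 to 2 with 1 library left out (0 without WT F3, 2 without WT F2). With the replicate number as a block the count in Q140 vs WT was 10, with 4 higher and 6 lower, including the same 8 peaks. Same-numbered libraries did not deviate together in general (r from -0.365 to 0.458, and 4 of 24 libraries closest to their own number). For M3 every r was positive, from 0.031 to 0.199. The main model therefore held no pairing by number, though so few libraries per number cannot exclude one.

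Of the 8 peaks past the threshold, those of Drd1 and Chrm4, the Tac1 peaks at 44.44 and -282.77 kb and the Isl1 peak at 96.11 kb passed under every setting that tested them. The Tac1 peak at -252.27 kb lost its call with total counts, DESeq2 and no sex term, with adjusted p from 0.0189 to 0.189 over all settings. Of the named values, 0 that passed reversed, and of 124 that did not pass, 3 passed under some setting and 52 changed sign. The cause was not tested. Leaving out Q140 F2 and Q140_Msh3KO M1 together was chosen after seeing the data. Counts below about 10 in several libraries limit the Tac1 peak at -282.77 kb and the Isl1 peak at 96.11 kb. The Tac1 peak at 44.44 kb held 9 counts in Msh3KO F2.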
